A study of Mus musculus with 2 samples.

Results

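Vehicle-only promoter peaks are distinct intervals of the vehicle peak list that reached into the 1 kb on either side of a protein-coding transcription start site on an autosome and shared no base with any TAMo interval. There were 1321 of them among 22390 vehicle promoter intervals (5.9%, 95% Wilson interval 5.60 to 6.22%) and among 127423 vehicle intervals in all. They lay at 1274 of the 13759 genes with a vehicle promoter interval (9.26%). At 173 of these genes (1.26% of the 13759) the TAMo list held no promoter interval at all, and these genes took 195 of the intervals. A further 7 genes lacked a TAMo promoter interval only because their interval met a TAMo one outside the window, which makes 180 (1.31%). The other 1101 genes kept a TAMo promoter interval and had the vehicle-only interval as an additional site, which accounted for the other 1126 intervals. The counts depend on what is taken as shared: with a TAMo interval within 500 bp counted as shared, 166 genes had no TAMo promoter peak and 163 had an additional site, and when only as many of the strongest TAMo intervals were used as vehicle had, these were 489 and 1865 genes. Of all members, 71 reached 2 or more genes, and 112 genes had 2 or 3 members. Presence and absence in the 2 lists chose the members, so these counts, and the summit coverages that set whether a peak was called, are descriptions.

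The assay was ATAC-seq: a transposase inserts adapters where nucleosomes leave DNA free, and reads pile up over open promoters and enhancers. The TAMo culture combined OT-I CD8+ T cells, which carry a transgenic receptor for an ovalbumin peptide, with TAMos, the CD11b+ Ly6G- Ly6C-high cells of spleens from LLC (Lewis lung carcinoma) tumour-bearing mice. The vehicle culture held OT-I CD8+ T cells without TAMos. Both were labelled WT, both received the peptide OVA257-264 for 48 h, and CD8+ T cells were then sorted, about 50000 for each library. The sort leaves the TAMos themselves out by design, and the labels give no age, sex or number of mice. Each culture gave 1 library, so no difference here has a replicate check, no test was made between the cultures, and all intervals cover counting error only.

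An active promoter usually has a nucleosome-depleted core at the start site, kept open by general factors such as SP/KLF, ETS and NFY proteins, with further accessible sites on both sides that can be promoter-proximal enhancers or second start sites. After activation a CD8+ T cell opens promoters of the cell cycle, of DNA synthesis and of effector genes. Replication-dependent histone genes, which sit in clusters and are transcribed mainly in S phase, are among the most strongly expressed genes of dividing cells. Coverage of the TAMo library was known only under its own peaks, so where the TAMo list has no interval the site may still be open to some degree. A lower signal in a bulk library cannot be told apart from a smaller share of cells with the site open.

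Sequencing depth, read from the most frequent local background of each list, was 5.80 reads in TAMo and 4.71 reads in vehicle, a ratio of 1.23, and the TAMo list was also the longer, with 179414 intervals. In the reverse direction, 3861 of 24552 TAMo promoter intervals (15.7%) met no vehicle interval. Outside promoters, 14575 of 105033 vehicle intervals (13.9%) met no TAMo interval. All 11 CD8 T cell markers, among them Cd3e and Cd8a, had a promoter interval in both libraries, with medians of 699 reads in TAMo and 561 reads in vehicle. Of 10 monocyte and macrophage markers, 6 had a promoter interval in TAMo (31 to 661 reads) and 4 in vehicle (18 to 510 reads). Lyz2, Ly6c2 and Ccr2 had none in either list, and Itgam, Csf1r and Adgre1 had one in TAMo alone. All 5 neutrophil markers had none in either list. The part of such cells in the results below was not tested.

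Sequences are shown first, because these are stretches of DNA called open in vehicle and not in TAMo. They come from the strongest vehicle-only promoter intervals with enough bases upstream of the start in the RefSeq promoter table (assembly GRCm38.p6, which is mm10). Stronger additional sites away from that stretch, such as those of Papss2, Rrm2 and Tk1, are therefore not shown. Each runs 5′ to 3′ on the strand of its gene, is the stretch of the interval inside the table's window upstream of the start, and ends at the base before the RefSeq start site. Capitals mark matches, on either strand, to the NFY motif CCAAT, the SP/KLF motif GGGCGG, the RUNX motif TGTGGT and the core promoter element TATAAA. The first 4 belong to genes with no TAMo promoter interval and the other 3 to additional sites, the last of them the promoter of the interleukin-17A gene. That last one was taken from a T cell list and not for its strength, with a −log10 q of 7.72.
Hist1h3d, chr13:23575619-23575762, + strand: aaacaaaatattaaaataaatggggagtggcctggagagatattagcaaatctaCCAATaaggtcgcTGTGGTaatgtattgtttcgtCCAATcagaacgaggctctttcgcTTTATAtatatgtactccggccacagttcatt
2200002J24Rik, chr7:30698746-30698925, + strand: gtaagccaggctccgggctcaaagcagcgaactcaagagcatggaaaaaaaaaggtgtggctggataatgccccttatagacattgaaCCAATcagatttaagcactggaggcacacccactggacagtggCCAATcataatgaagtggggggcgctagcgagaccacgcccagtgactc
Padi3, chr4:140810649-140810858, - strand: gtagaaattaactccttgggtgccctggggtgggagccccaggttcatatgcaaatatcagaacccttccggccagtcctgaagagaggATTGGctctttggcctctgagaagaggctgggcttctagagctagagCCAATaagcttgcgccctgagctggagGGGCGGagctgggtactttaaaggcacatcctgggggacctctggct
Clec2i, chr6:128887434-128887589, + strand: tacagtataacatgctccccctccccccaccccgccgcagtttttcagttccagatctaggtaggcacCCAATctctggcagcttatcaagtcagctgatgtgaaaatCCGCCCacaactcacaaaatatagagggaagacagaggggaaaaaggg
Cmah, chr13:24414924-24415121, + strand: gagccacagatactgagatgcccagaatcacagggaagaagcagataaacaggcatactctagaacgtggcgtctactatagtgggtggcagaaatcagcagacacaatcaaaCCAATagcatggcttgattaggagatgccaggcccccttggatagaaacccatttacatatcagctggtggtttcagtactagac
Apobec3, chr15:79894773-79895022, + strand: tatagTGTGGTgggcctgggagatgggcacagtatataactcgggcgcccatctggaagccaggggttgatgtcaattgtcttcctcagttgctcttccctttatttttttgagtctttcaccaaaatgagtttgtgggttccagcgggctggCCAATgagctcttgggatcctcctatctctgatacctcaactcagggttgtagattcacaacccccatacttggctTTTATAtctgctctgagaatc
Il17a, chr1:20730690-20730904, + strand: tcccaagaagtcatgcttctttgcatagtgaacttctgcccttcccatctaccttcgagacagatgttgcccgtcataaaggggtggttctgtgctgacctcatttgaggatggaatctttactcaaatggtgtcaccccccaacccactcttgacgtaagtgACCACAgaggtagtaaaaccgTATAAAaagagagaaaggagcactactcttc

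Most vehicle-only promoter peaks were narrow and weak. Their median width was 169 bp, against 528 bp for vehicle promoter intervals shared with TAMo, and 72.4% of them, against 16.0% of the shared ones, were narrower than 200 bp. Their median summit coverage was 65 reads, against 228 reads for shared intervals, and the median −log10 q, the peak caller's strength value, was 8.99 against 107. Several summits within an interval were found in 3.56% of the vehicle-only and in 50.1% of the shared ones. TAMo-only promoter intervals were of like width, with a median of 184 bp, and had a median coverage of 65 reads before depth scaling. Their median −log10 q was higher than that of vehicle-only ones, 12.3.

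The share of vehicle promoter intervals with no TAMo counterpart fell with their own coverage. Below 25 reads at the summit it was 32.2% (262 of 814), between 50 and 100 reads it was 11.3% (396 of 3515), and between 200 and 400 reads it was 1.73% (79 of 4564). At 400 reads or more it was 0.0728% (5 of 6871). The vehicle-only intervals were spread over all autosomes, at shares of vehicle promoter intervals between 4.80% on chromosome 16 and 6.77% on chromosome 7.

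**Figure D1:**
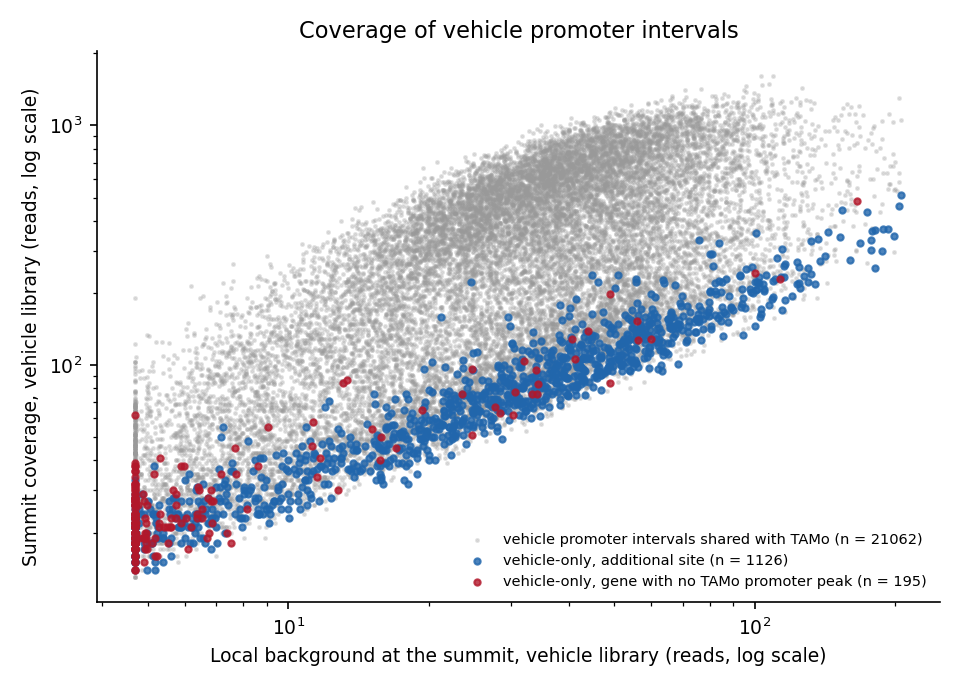
Summit coverage (reads, log scale) against local background (reads, log scale) of vehicle promoter intervals, 1 point an interval: 195 at genes with no TAMo promoter interval (red), 1126 at additional sites (blue) and 21062 shared with TAMo for which coverage could be recovered (grey). Additional sites run along the lower edge of the cloud, whereas red points gather at the lowest background, 4.71 reads.

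The 2 kinds differed in where they lay. For genes with no TAMo promoter interval, the median distance to the nearest TAMo interval was 4246 bp, and 43.1% of the intervals had none within 5 kb. Additional sites lay a median of 132.5 bp away, and 93.9% had a TAMo interval within 1 kb. The kinds were defined by whether a TAMo interval reached the promoter, so this difference is built into the rule. Local background, which the peak caller takes from the surrounding DNA, had a median of 4.73 reads in the first kind and 28.5 reads in the second, beside 30.2 reads at shared intervals.

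**Figure D2:**
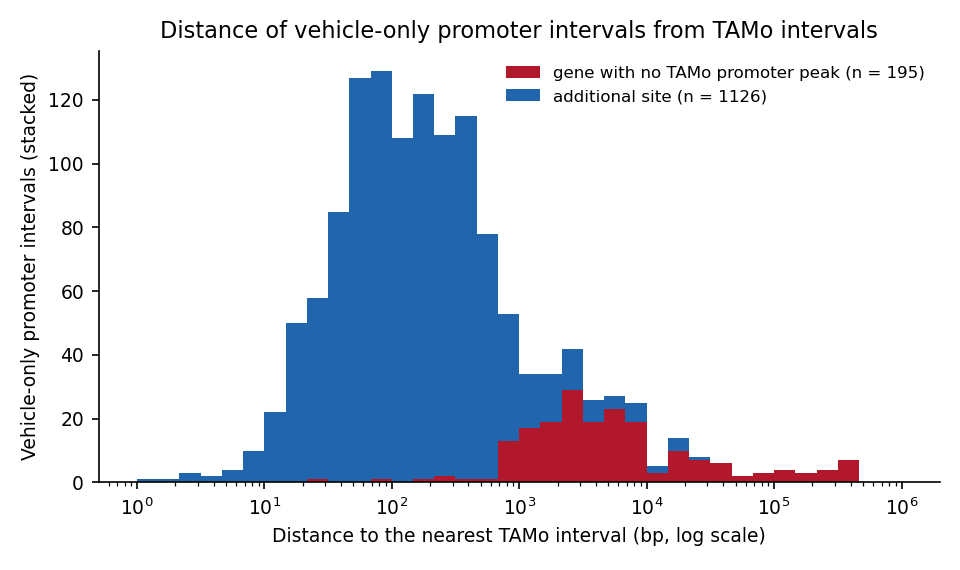
Stacked counts of vehicle-only promoter intervals (y axis) by distance to the nearest TAMo interval (bp, log scale): 195 at genes with no TAMo promoter interval (red) and 1126 at additional sites (blue). Blue bars centre near the median of 132.5 bp and red bars on that of 4246 bp.

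Position relative to the start site also set the kinds apart. The rule favours this, since an additional site must lie off the TAMo interval that its gene keeps. Of the intervals at genes with no TAMo promoter interval, 50.3% had their summit within 250 bp of a start site, close to the 56.8% of shared intervals. Of the additional sites 20.7% did, like the 22.1% of TAMo-only promoter intervals. Summits of additional sites lay 250 to 1000 bp downstream in 40.2% and as far upstream in 32.1%. Introns held 52.3% of their summits, against 35.1% of shared ones. Coding exons held 20.5% of the summits at genes with no TAMo promoter interval, 9.68% at additional sites and 5.80% at shared intervals.

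**Figure D3:**
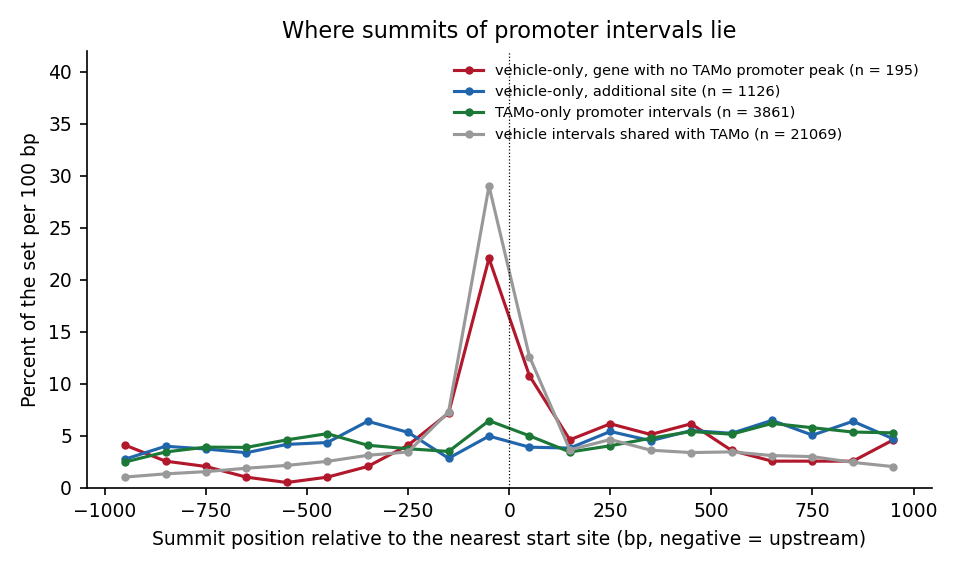
Percent of summits (y axis) in each 100 bp around the nearest start site (x axis, bp, negative upstream), for vehicle-only intervals of both kinds, TAMo-only promoter intervals and vehicle intervals shared with TAMo. In the 100 bp before the start site, the first kind (red) reaches 22.1%, additional sites (blue) 4.97% and shared intervals (grey) the highest value of the 4 lines.

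Genes with no TAMo promoter interval mostly had a weak vehicle peak on a low background. Of the 195 intervals, 97 (49.7%) stood on the most frequent background of the library, with a median of 22 reads and a range of 14 to 62 reads. The 69 additional sites on such a background had 14 to 33 reads, with a median of 19 reads.

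Hist1h3d, a histone H3 gene, had 482 reads at a summit 44 bp before its start in vehicle and its nearest TAMo interval 1084 bp away. Its local background was high, 165 reads, so that the enrichment over background was only 2.91-fold. Padi3, a peptidylarginine deiminase gene best known from skin and hair follicles, had 87 reads on a background of 13.4 reads, and neither list held another interval within 2 kb of its start site. 2200002J24Rik showed 62 reads on the lowest background, the highest enrichment of the 1321 intervals at 11.0-fold, 8464 bp from the nearest TAMo interval. Tomm20l (84 reads), Ccdc106 (241 reads), Clec2i (139 reads), Gm21969 (129 reads), Chadl (96 reads), Tmem69 (152 reads), Ermn (55 reads) and 1700066B19Rik (104 reads) were others among the strongest. Clec2i encodes a C-type lectin of the natural killer gene complex. Tmem69 and Clec2i peaks lay at their start sites, 28 and 44 bp upstream, whereas those of Ccdc106 and Tomm20l lay in coding exons.

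Additional sites were mostly shoulders of a stronger promoter peak that both libraries shared. A shared vehicle interval lay within 1 kb of 1001 of the 1126 (88.9%), with a median gap of 96 bp between the edges and of 523 bp between the summits. The additional site was the farther of the pair from the start site in 754 cases (75.3%). Its coverage was a median of 32.9% of that of its neighbour and was lower than it in 940 cases (93.9%).

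Promoters of these genes were called over less DNA in TAMo. Within 1 kb of their start sites the TAMo list had fewer intervals than the vehicle list at 785 of the 1101 genes (71.3%), against 1530 of the 12485 genes without a vehicle-only interval (12.3%). TAMo intervals covered fewer bases than vehicle intervals at 845 of the 1101 (76.7%), with medians of 1001 bp in TAMo and 1120 bp in vehicle. The rule favours both differences, since each of these genes has 1 vehicle interval that no TAMo interval meets. At 244 of the 1101 (22.2%) the TAMo list also held a promoter interval that met no vehicle interval, so that both lists had sites of their own at 1 gene, against 19.4% of the genes without a vehicle-only interval.

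At the strongest promoter interval that the lists shared, summit coverage could be compared directly for 1054 of these genes. The log2 ratio of TAMo over vehicle coverage, scaled by depth, had a median of 0.00 (quartiles −0.20 and 0.21), beside 0.03 over all 13535 genes with such an interval. The exact binomial interval lay below 0 at 246 of the 1054 genes (23.3%), against 18.2% of all genes, and above 0 at 255 (24.2%), against 25.9%. A ratio of −0.5 or lower was found at 101 (9.58%), against 5.19%, and one of 0.5 or higher at 107 (10.2%), against 11.0%. The median gene with an additional site thus had a shared peak of about equal height in both libraries, with a larger share of strongly lower ratios than over all genes. Some of these genes share an interval, as 17 histone genes do with 11 distinct ones, so genes are not independent units. The rule may favour lower ratios, since it took genes with a vehicle interval that no TAMo interval met.

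Rrm2 and Tk1, both of which supply deoxynucleotides for DNA synthesis, were among the 12 strongest additional sites. Rrm2, the regulatory subunit of ribonucleotide reductase, had a vehicle-only interval 561 bp before its start site (chromosome 12, 24707545 to 24707841) with 334 reads. Another interval found in vehicle only, 1256 bp before the start site with 342 reads, lay outside the promoter window of the gene. Its core promoter peak held 580 reads in TAMo and 704 reads in vehicle, a log2 ratio of −0.58 (−0.74 to −0.42). Inside the same shared interval, another summit had 519 reads in TAMo (426 bp downstream) and 366 reads in vehicle (423 bp downstream). Tk1, which encodes thymidine kinase 1, had vehicle-only intervals at 573 bp downstream (237 reads) and 75 bp upstream (119 reads). Between them lay a shared peak of 153 reads in TAMo and 418 reads in vehicle, a log2 ratio of −1.75 (−2.03 to −1.48). Afmid shares both Tk1 sites, being transcribed from the opposite strand.

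The strongest additional site of all by −log10 q (125) was that of Papss2, which makes the sulfate donor PAPS. It lay 897 bp downstream in an intron (chromosome 19, 32596518 to 32596828), with 221 reads, while the core promoter peak held 269 reads in TAMo and 219 reads in vehicle, a log2 ratio of −0.01. Here a vehicle-only site was as high as the core peak beside it. Apobec3, a cytidine deaminase that restricts retroviruses, had the widest vehicle-only interval, 857 bp with 3 summits and up to 354 reads, 100 bp from a TAMo interval. Cmah, an enzyme of sialic acid synthesis, had 322 reads 81 bp before a start site, next to a shared peak of 1211 reads in TAMo and 858 reads in vehicle. Brd2, a bromodomain protein, and H2-DMa, a class II antigen-loading gene, shared a site of 442 reads. Cntd1 and Coa3 also shared theirs, with 159 reads, and the last of the 12 were Rap1gds1 with 237 reads and Eif1a with 221 reads. Vehicle-only sites therefore stood beside shared peaks that were higher, equal or lower in TAMo.

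**Figure D4:**
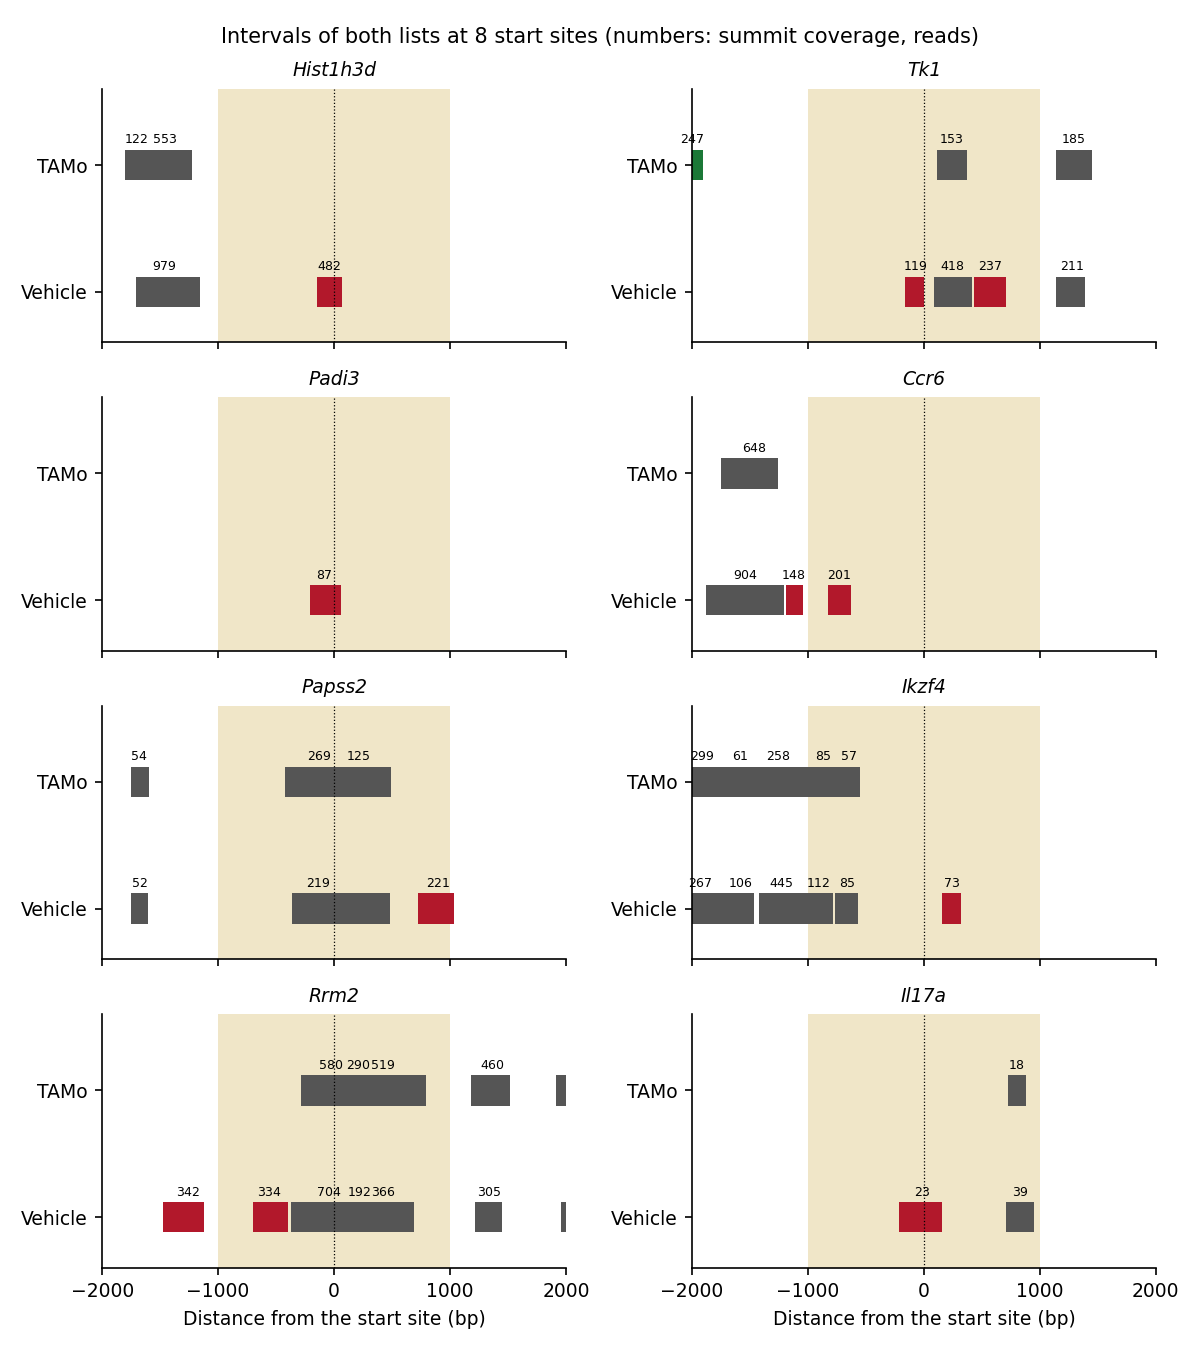
Intervals of the TAMo list (upper row) and the vehicle list (lower row) around 8 start sites, chosen after their values were seen, by distance from the start site (bp, on the strand of the gene). Red marks intervals found in the vehicle list only, green in the TAMo list only, and dark grey intervals that meet one of the other list; numbers are summit coverage in reads and the shaded band is the promoter window. At Padi3 and Hist1h3d the TAMo row is empty within the band, whereas at Rrm2, Tk1 and Papss2 a shared interval lies beside the red one.

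Histone genes were the family with the clearest pattern. Of 59 histone genes with a vehicle promoter interval, 18 (30.5%) had a vehicle-only one, 17 of them as an additional site, against 9.26% of all genes. Because neighbours share intervals, these were 15 distinct intervals of 83 (18.1%, 11.3 to 27.7%), beside 5.9% of all vehicle promoter intervals. Of the 15, 14 lay on chromosome 13, as did 66 of the 83. The summits of the 15 held 144 to 482 reads, high among the members, and their local background in vehicle was 49.2 to 198 reads. Of all vehicle promoter intervals on 20 or more times the most frequent background, 71 of 699 (10.2%) were vehicle-only. The 71 include the 14 histone intervals on chromosome 13. At the TAMo intervals nearest to the 15 histone intervals the local background was 25.3 to 112 reads.

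The lower background was also found at shared histone intervals. After scaling by depth, the local background at the 68 shared histone promoter intervals was lower in TAMo at 68 of 68, with a median log2 ratio of −1.11 and medians of 73.4 reads in TAMo and 128 reads in vehicle. Over all 21059 shared promoter intervals the median log2 ratio was −0.01, with 52.2% below 0. At the 13 histone members with a TAMo interval within 1 kb it was −1.13, and it was −0.05 over all 1077 members with one. The log2 ratio of summit coverage at the strongest shared promoter interval was below 0 at 56 of 58 histone genes, with a median of −0.43. Near Hist1h3d, the shared peak upstream had 553 reads on a background of 72.4 reads in TAMo and 979 reads on 180 reads in vehicle. Histone genes have near-identical copies, and the sources used here do not say how reads that match several of them were placed. The family was listed by its symbol prefix, and its backgrounds were compared after its counts had been seen.

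**Figure D5:**
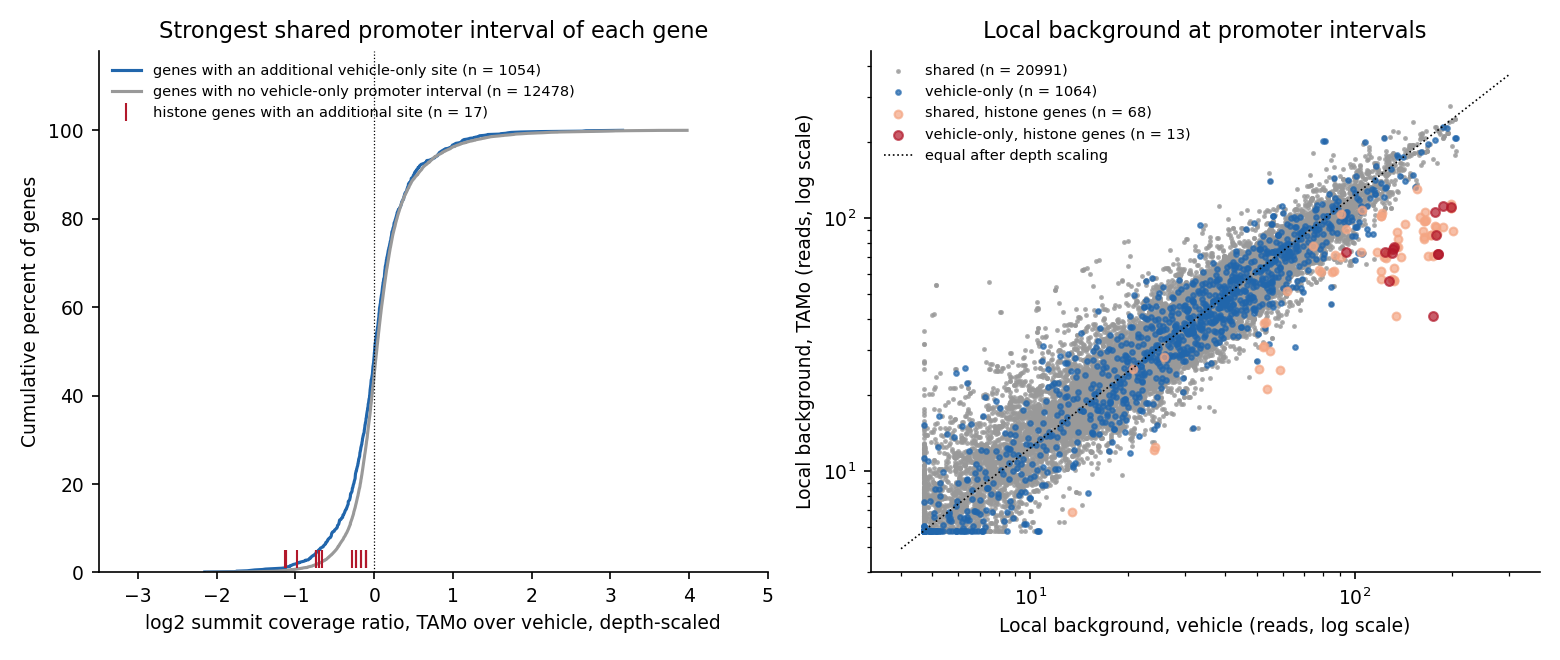
Left, cumulative percent of genes (y axis) by the depth-scaled log2 ratio of TAMo over vehicle summit coverage at the strongest shared promoter interval, for 1054 genes with an additional vehicle-only site (blue), 12478 genes without a vehicle-only interval (grey) and 17 histone genes with an additional site (red ticks, several genes on 1 interval). Right, local background in TAMo against vehicle (reads, log scales) at shared promoter intervals and at vehicle-only ones with a TAMo interval within 1 kb; the 68 shared and 13 vehicle-only histone intervals all lie under the dotted line of equal depth-scaled background.

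In the list of cell cycle and DNA replication genes 7 of 49 (14.3%) had one, beside 9.26% of all genes, and each kept a TAMo promoter interval. Besides Rrm2 these were Cdc45, a subunit of the replicative helicase (228 reads), the licensing factor Cdt1 (143 reads), Gins2 of the GINS complex (124 reads), the CDK inhibitor gene Cdkn1a (98 reads), the mitotic kinase gene Plk1 (73 reads) and Top2a, a topoisomerase (67 reads). At their strongest shared promoter interval the log2 ratio ran between −0.58 at Rrm2 and 0.10 at Top2a. Chromatin genes had 5 of 22 (22.7%), namely Arid1a (238 reads), Tet3 (127 reads), Hdac7 (113 reads), Dnmt3a (58 reads) and Sirt1 (56 reads).

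T cell genes kept their promoter calls. In the lists of naive and memory, effector, inhibitory receptor, activation, T cell receptor signalling, cytokine receptor and interferon genes, no gene was without a TAMo promoter interval where vehicle had one. Additional sites were found at 5 of 22 naive and memory genes (22.7%), 5 of 29 activation genes (17.2%), 4 of 34 interferon genes (11.8%), 3 of 27 inhibitory receptor genes (11.1%), 2 of 25 effector genes (8%), 1 of 26 receptor signalling genes (3.85%) and 1 of 36 cytokine receptor genes (2.78%). With so few genes a list, these shares say little apart from the background of 9.26%.

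Tcf7, which encodes the memory factor TCF-1, had a site of 165 reads 819 bp downstream. Its strongest shared promoter interval held 288 reads in TAMo and 209 reads in vehicle. The depth-scaled log2 ratio was 0.16 (−0.10 to 0.42), an interval that spans 0. Ikzf1 (176 reads), Satb1 (103 reads) and Zeb1 (80 reads) were other naive and memory genes with a site. Among activation genes, Junb of the AP-1 family had 332 reads, the amino acid transporter gene Slc3a2 had 219 reads, Nfatc2 had 161 reads, Nfatc1 had 120 reads and Cd44 had 74 reads. Nfatc2 was higher in TAMo at its strongest shared promoter interval, with 783 reads in TAMo and 404 reads in vehicle. Inhibitory receptor and exhaustion genes with a site were Egr3 (131 reads), the orphan nuclear receptor gene Nr4a2 (99 reads) and Entpd1, which encodes CD39 (38 reads). Id2 (153 reads) and Runx3 (105 reads) were the effector genes, and Zap70 (93 reads) and Stat5a (146 reads) stood alone in their lists.

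The interferon genes were Psmb8 (221 reads), Irf3 (151 reads), Isg20 (98 reads) and Oasl1 (49 reads). Oasl1 had the weakest of these sites, 1.68-fold over background with a −log10 q of 1.99, near the lowest of the vehicle list, 1.32. Its shared interval was higher in TAMo, with 806 reads in TAMo and 296 reads in vehicle, a log2 ratio of 1.14 (0.95 to 1.34). The highest ratio at a gene with an additional site and at least 100 vehicle reads was that of Tfap4, with 869 reads in TAMo and 231 reads in vehicle, but these summits lay 216 bp apart. The next was Tmem40, with 416 reads in TAMo and 128 reads in vehicle at summits 7 bp apart.

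Genes of TGF-beta signalling and regulatory T cells had an additional site at 5 of 19 (26.3%), beside 9.26% of all genes with a vehicle-only interval of either kind. These were the SMAD corepressor gene Ski (258 reads), Tgif1, another repressor of the pathway (265 reads), Lrrc32, which encodes the latent TGF-beta docking protein GARP (163 reads), the signal transducer gene Smad3 (126 reads) and the Ikaros family gene Ikzf4 (73 reads). Shared promoter intervals were higher in TAMo at Lrrc32 (656 reads against 363 reads in vehicle, log2 ratio 0.55) and Smad3 (603 reads against 402 reads, 0.28). At Ikzf4 a single TAMo interval met several vehicle intervals: 1257 bp upstream TAMo had 258 reads against 445 reads in vehicle (1225 bp upstream), and 1911 bp upstream TAMo had 299 reads against 267 reads in vehicle (1926 bp upstream). The strongest summits of the 2 libraries therefore differed in position, and the log2 ratio of −0.88 for this gene compares unlike summits. Shared peaks beside these sites were thus higher in TAMo at some genes and not at others.

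In the list of chemokine receptor and adhesion genes, 4 of 18 with a vehicle promoter interval (22.2%) had a vehicle-only one, beside 9.26% of all genes. Ccr6, the CCL20 receptor that marks T helper 17 cells, had 2, at separate start sites. The first (201 reads, 735 bp upstream) lay near a shared peak outside the window of 648 reads in TAMo and 904 reads in vehicle. The second (chromosome 17, 8241738 to 8241938, 135 reads) lay 54 bp from a shared interval (8241992 to 8242766) of 91 reads in TAMo and 328 reads in vehicle, the lowest log2 ratio among genes with an additional site and at least 100 vehicle reads, −2.15 (−2.50 to −1.81). Ccr3, an eotaxin receptor, had a single vehicle-only interval of 41 reads 981 bp downstream and no TAMo promoter interval, but a TAMo interval lay 28 bp away, outside the window. Ccr4 (71 reads) and Ccr9 (26 reads) had additional sites.

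The interleukin-17A gene Il17a, from the list of CD4 and helper T cell genes (2 of 8 with a vehicle-only interval), had a weak additional site. The promoter peak (chromosome 1, 20730690 to 20731064) held 23 reads 15 bp before the start, and the shared interval of the gene held 18 reads in TAMo and 39 reads in vehicle, a log2 ratio of −1.42 (−2.31 to −0.58). Of the 2 CD4 T cell markers, Cd4 had no promoter interval in either list. The other, Zbtb7b, had one in both, with 1144 reads in TAMo and 831 reads in vehicle.

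Stress and survival genes had additional sites at shares near or below the 9.26% of all genes, and each kept a TAMo promoter interval. In the amino acid and stress response list 3 of 30 had one (10%), namely Eif2ak4, which encodes the amino acid sensor GCN2 (117 reads), the heat shock gene Hspa1b (99 reads) and Nqo1, an NRF2 target (67 reads). Apoptosis and p53 genes had 2 of 25 (8%), the p53 target Bbc3, which encodes PUMA (178 reads), and the inhibitor of apoptosis gene Birc3 (135 reads). Birc3 had 1288 reads in TAMo and 866 reads in vehicle at its shared promoter interval, a log2 ratio of 0.27 (0.14 to 0.40). Of 25 glycolysis and hypoxia genes 1 (4%) had a site, the mTORC1 inhibitor gene Ddit4 (291 reads), with a shared interval of equal scaled height, 1068 reads in TAMo and 869 reads in vehicle. Actg1 (171 reads) was the single one of 20 housekeeping genes (5%).

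Lists of other cell types held 11 or fewer genes with a vehicle promoter interval each, so that 1 gene moves a share by several points beside the 9.26% of all genes. Monocyte and macrophage genes with a vehicle-only interval were Cebpb (157 reads), Fcgr1 (18 reads) and Mrc1 (16 reads), 3 of 11 (27.3%), the last 2 of them with no TAMo promoter interval. Of the B cell, dendritic cell and NK cell lists, 1 of 7 (14.3%, Cd74 with 85 reads), 2 of 6 (33.3%, Ccr9 and Zbtb46) and 0 of 6 had one, and no neutrophil gene had a vehicle promoter interval. Among gene families, beside the 9.26% of all genes, proteasome genes had 7 of 46 (15.2%), solute carriers 31 of 259, cytosolic ribosomal protein genes 6 of 79 (7.59%), Zfp genes 20 of 331 (6.04%) and mitochondrial ribosomal protein genes 2 of 78 (2.56%). Olfactory receptor genes, silent in T cells as a rule, had 6 of 36 (16.7%), 3 of them with no TAMo promoter interval, while 68 others had a promoter interval in TAMo alone. Their vehicle-only peaks were weak: Olfr1368 had 29 reads, Olfr646 had 24 reads, Olfr11 had 23 reads and Olfr543 had 19 reads.

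Several other families held few genes to set beside the 9.26% of all genes. Respiratory complex I genes had 3 of 44 (6.82%), with Ndufb7 at 158 reads, Ndufab1 at 80 reads and Ndufa4l2, a complex I subunit homologue with no TAMo promoter interval, at 127 reads and 85 bp from a TAMo interval outside the window. Serpin genes had 3 of 9 (33.3%, among them Serpina3f with 30 reads and Serpinb1a with 23 reads), C-type lectin genes 2 of 8 (25%, Clec2i and Clec18a), keratin genes 2 of 9 (22.2%) and killer lectin-like receptor genes 1 of 14 (7.14%, Klrb1, 14 reads). The keratin-associated gene Krtap19-9b stood farthest from TAMo signal of the genes named here, with 39 reads at its start site and no TAMo interval for 430278 bp. Tmem genes had 16 of 185 (8.65%), Ccdc genes 4 of 103 (3.88%) and vomeronasal receptor genes 0 of 3. Both Serpina3f and Krtap19-9b stood without a TAMo promoter interval.

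Members just inside the rule show how fine its limits are. The weakest lay at Fxyd7 (32 reads, −log10 q of 1.36), C1d (33 reads, 1.76) and Lrfn3 (18 reads, 1.80), near the lowest −log10 q of the vehicle list, 1.32. A TAMo interval began directly beside the member at Cldn5, and lay 2 bp away at Nxph1 and 3 bp away at Msl1. In all, 29 members lay within 10 bp of a TAMo interval. Just outside were Slc29a1 and Lipe, whose vehicle intervals shared 3 bp with TAMo, and Plch2 with 4 bp, and 6 vehicle promoter intervals shared 10 bp or fewer. Narrow misses of this kind belong almost wholly to the additional sites, since only 7 of the 195 intervals at genes with no TAMo promoter interval lay within 500 bp of one. The rule favours this, since no TAMo interval reached the promoter windows of those genes.

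Base composition could be read only where an interval covered at least 150 bases of a promoter table window of 300 bases (250 before and 50 after the start site). That held for 110 windows of vehicle-only intervals, and 992 of the 1274 genes had a window, so a check over all members is void. CpG islands, unmethylated stretches rich in CpG that mark most broadly active promoters, were less frequent there: an observed over expected CpG ratio of at least 0.6 was found in 39.1% of the 110 windows (30.5 to 48.4%), against 78.4% of 10969 windows of shared intervals. It was 27.9% (12 of 43) for genes with no TAMo promoter interval and 46.3% (31 of 67) for additional sites. Windows of TAMo-only intervals had 31.0%, windows without an interval in either list 9.63%, and all 19539 windows 49.9%.

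Motif shares rest on few windows. GGGCGG was present in 52.7% of the 110 windows (43.5 to 61.8%), 69.5% of shared ones and 48.0% of all. CCGGAAGT, the ETS motif, was in 2.73% (0.93 to 7.71%), 9.02% and 5.40%. Both intervals contain the share of all windows and lie below that of shared ones. CCAAT, on which the printed promoters of Hist1h3d, 2200002J24Rik and Padi3 have a pair of matches each, was found in 39.1%, 38.0% and 37.8%. TGTGGT was in 17.3% (11.3 to 25.4%), 11.8% and 14.6%, and TGANTCA, the AP-1 motif, in 9.09% (5.01 to 15.9%), 4.86% and 7.11%. TATAAA, present in the Hist1h3d, Apobec3 and Il17a sequences, was in 6.36%, 5.83% and 12.4%. The other 6 motifs (those of CTCF, IRF and NRF1, AAGATGGCG for YY1, TGACGTCA for CRE and AGGTGTGA for T-box factors) were in 3 or fewer of the 110 windows each. Both strands were searched, motifs may overlap, and a match is a run of letters in the window and not a binding site.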

How the data were processed

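ATAC-seq peak lists of 1 TAMo and 1 vehicle library were analysed. Trimmomatic 0.36, Bowtie2, MACS2 and build mm10 are listed in the submitters' processing notes. Settings, duplicate removal and read shifting were not given in the sources used here. Libraries were sequenced as paired reads of 150 bp, per the labels' protocols. Peaks were called per library. In the deposited files the score is 10 times the −log10 q, the fold is enrichment of the summit over local background, and −log10 p and −log10 q are the authors' own values. Rows with 1 interval and several summits were joined. Summit coverage was recovered from the authors' fold and −log10 p, in whole reads within 1% of the step between neighbouring coverages; 48 TAMo and 30 vehicle rows gave none. Coverage of a library is known only at its own summits.

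Start sites were those of GENCODE M21 (basic set, mm10), 20807 autosomal protein-coding gene IDs; promoters were 1 kb on either side, and overlap was 1 bp or more. Log2 ratios compare the strongest shared promoter interval of a gene, scaled by the most frequent background, with exact binomial intervals. Shares carry 95% Wilson intervals. Since reads can be copies of 1 molecule, these intervals cover counting error alone. The rule for named genes took the 12 strongest genes of each kind, every member of 21 gene lists, the 4 strongest of each of 15 symbol families, and intervals at the limits of the rule; some of these are not reported here. Loci drawn, ratio extremes and backgrounds of histone genes were chosen after values were seen. Members and lists were chosen with earlier results of these data known. Scripts were tested on simulated data. Python 3.11.15, pandas 2.3.3, NumPy 2.4.6, SciPy 1.17.1 and matplotlib 3.10.9 were used.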

Additional observations from a re-analysis of the deposited data

How the results depend on the processing

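With 9 alternatives, 25 of 45 values stayed within 1.5 times the count or within the counting interval of the share (5.60 to 6.22%) or median (60 to 69 reads). For the 1321 intervals, 173 genes, 1101 genes, median of 65 reads and share of 5.90%, those that moved were as follows. A 500 bp promoter window gave 776 intervals, 590 genes with an additional site, a median of 52 reads and a share of 4.28%, and a 2.5 kb window gave 2227, 1972, 70 reads and 7.85%. Counting a TAMo interval within 500 bp as shared left 356 intervals, 163 genes with an additional site, 27 reads and 1.59%, while genes with no TAMo promoter peak numbered 166. Shortening the TAMo list to the length of the vehicle list gave 2607 intervals, 489 genes with no TAMo promoter peak, 1865 with an additional site, 53 reads and 11.6%. A vehicle −log10 q of at least 5 gave 77 reads and 4.99%, and asking TAMo intervals to cover 50% of the vehicle interval gave 6.86%. The count of genes with no TAMo promoter peak otherwise ran from 135 to 179. No paired analysis was possible because each group has 1 library and no test was made. The lowest peak called on the most frequent background had 14 reads in TAMo and 13 reads in vehicle. Scaled to TAMo depth, all 166 members on that background in vehicle had at least 17.3 reads, and 56 had 28 reads or more. That all exceed 14 reads is built in, since each was called in vehicle with at least 14 reads before scaling. The part of depth in weak sites was not tested.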
